A study of Mus musculus with 8 samples.

Results

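Peptide hormones, neuropeptides and the proteins of their secretory granules belong to nerve and endocrine cells, but the thymic epithelium transcribes many of their genes as self-antigens. The 40 such genes described here were a fixed list, found by symbol among the 27179 Entrez gene identifiers counted in every library. They are 12 brain and nerve neuropeptides, 3 opioid and melanocortin precursors, 10 gut and islet hormones, 7 calcium, pituitary and heart hormones, 6 granins and granule proteins, and 2 prohormone convertases. Polyadenylated RNA was sequenced from thymic epithelial cells of C57BL/6 mice, either wild type (WT) or knocked out (KO) for Mcl1, a gene for an anti-apoptotic protein of the BCL-2 family. Cortical cells (cTECs) gave 4 WT libraries and 1 KO library, and medullary cells (mTECs) gave 2 WT libraries and 1 KO library. The age of the mice, the driver of the deletion, the part of Mcl1 that was removed and any pooling of animals were stated in none of the sources used. The series calls its replicates biological but does not say that they came from separate animals, so p-values measure only the spread between these libraries.

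Neuropeptides and peptide hormones are made as long precursors, cut by prohormone convertases in dense-core granules and stored there with chromogranins and secretogranins until a stimulus releases them. In the thymic medulla, epithelial cells that carry the transcriptional regulators Aire and Fezf2 transcribe genes of other tissues so that T cells reactive to them can be deleted or diverted. Some medullary cells take on whole programs of another lineage, including an endocrine-like one marked by the zinc finger factor Insm1 and by granins, and cortical cells, which select T cells positively, are not known for such expression.

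KO mTEC was the shallowest library, with 11516780 counts, and WT mTEC 1 the deepest, with 19171953. Mcl1 stood at 112.7 and 203.5 CPM (the count as a rate per library size, after TMM scaling) in WT mTECs 1 and 2, 78.7 CPM in KO mTEC, 227.8, 301.9, 259.3 and 240.9 CPM in WT cTECs 1 to 4 and 8.23 CPM in KO cTEC. Mcl1 was called lower in KO cTEC (log2 fold change -4.97 ± 0.44, adjusted p = 0.000295; every fold change or difference printed with an adjusted p is on the log2 scale with its SE). In KO mTEC it lay below both WT mTEC libraries and was not called (-1.01 ± 0.36, adjusted p = 0.538). The epithelial marker Epcam lay between 784.1 and 1205 CPM in all 8 libraries. Psmb11, the proteasome subunit that defines cTECs, lay between 146.1 and 399.1 CPM in WT cTECs, at 750.6 CPM in KO cTEC and between 10.1 and 26.5 CPM in the 3 mTEC libraries. Medullary genes were also present in the WT cortical libraries: Aire stood at 116.2, 46.0, 28.9 and 78.0 CPM in WT cTECs 1 to 4, against 338.5 and 553.5 CPM in WT mTECs, 456.7 CPM in KO mTEC and 0 counts in KO cTEC. These are bulk libraries, in which fewer cells of a kind and less RNA per cell cannot be told apart.

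Sequence letters before the transcription start were counted among members. RefSeq starts on GRCm38.p6 were at hand for 34 of the 40 members, with none for Calcb, Vgf, Gh, Penk, Grp or Crh. The cAMP response element, searched as TGACGTCA on both strands of the 250 bases before each start, was found in 5 of these 34 genes (14.7%) and in 1.77% of 27025 genes. The 5 matches are shown because this element was more frequent among the members than among all genes. Each is given as 30 bases, 5′ to 3′ on the gene's strand, with the element in capitals, and was chosen after the values were seen.
Scg2 (chr1:79440076-79440105, minus strand): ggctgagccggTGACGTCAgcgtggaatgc
Chgb (chr2:132781559-132781588, plus strand): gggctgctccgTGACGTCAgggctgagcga
Pcsk1 (chr13:75089768-75089797, plus strand): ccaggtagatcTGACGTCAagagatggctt
Cartpt (chr13:99900777-99900806, minus strand): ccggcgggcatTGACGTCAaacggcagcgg
Sst (chr16:23890874-23890903, minus strand): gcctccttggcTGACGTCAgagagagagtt
The element begins 72 bases before the start in Chgb, 68 in Scg2, 78 in Pcsk1, 112 in Cartpt and 48 in Sst. The stretches shown for Pcsk1, Cartpt and Sst lie inside the longer RefSeq gene models, and those for Scg2, Chgb, Cartpt and Sst overlap a GENCODE exon of the same gene, so longer transcripts are annotated over them. The letters TATAAA occurred in 11 of the 34 genes (32.4%) and in 14.3% of all genes. The E-box letters CAGATG occurred in 10 (29.4%, against 16.3%) and CAGCTG in 8 (23.5%, against 14.7%). The left part of the RE1 element of the neuronal repressor REST, searched as TTCAGCACC, was found in none of the 34 and in 0.348% of all genes. A match describes the letters and says nothing of binding.

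**Figure D1:**
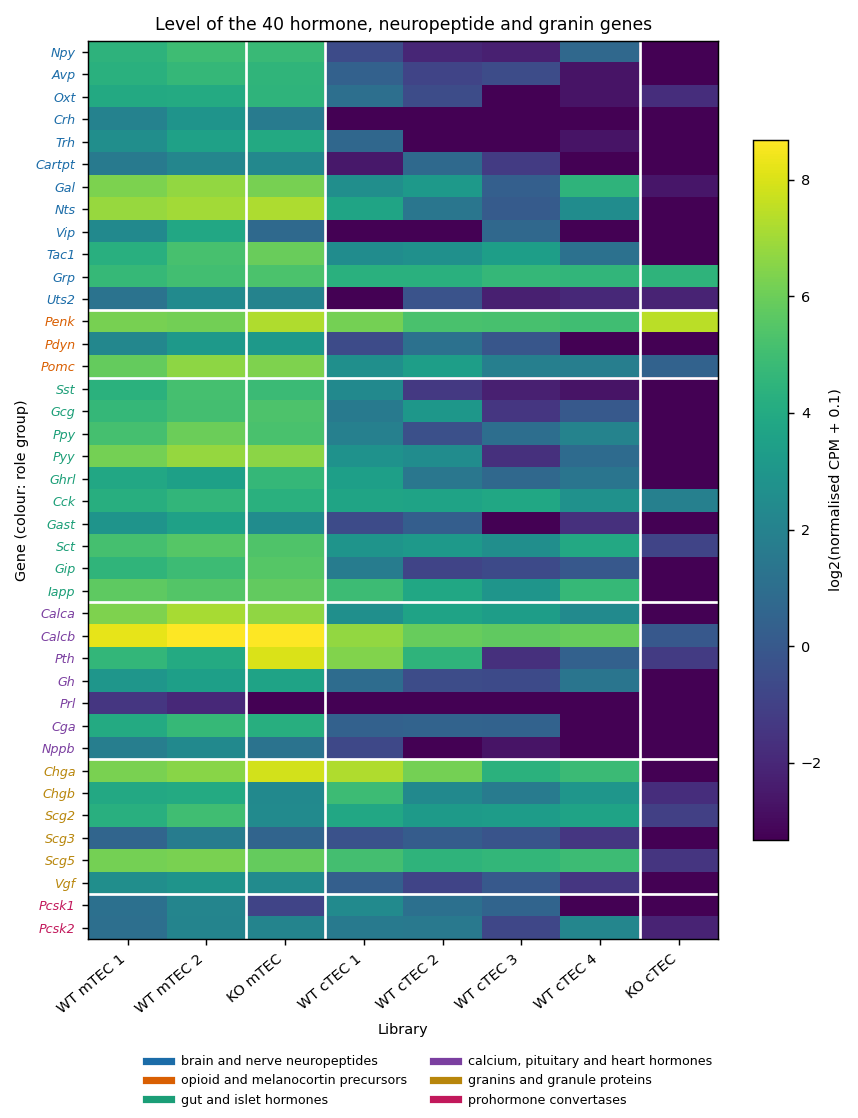
Level of each of the 40 members (rows, grouped by role) in each of the 8 libraries (columns), as log2(CPM + 0.1). The 3 mTEC libraries are bright across nearly all rows, the 4 WT cTEC libraries are dimmer, and KO cTEC holds 26 members at 0 counts while Penk and Grp stay bright.

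Hormone and granule transcripts were broadly present in mTECs, sparser in WT cTECs and nearly missing from KO cTEC. At least 1 count was found for 40, 40 and 39 members in WT mTEC 1, WT mTEC 2 and KO mTEC, for 36, 35, 35 and 32 members in WT cTECs 1 to 4, and for 14 members in KO cTEC. At 1 CPM or more these numbers were 39, 39 and 38, then 30, 26, 19 and 22, and then 4. Of all 27179 identifiers, 22367, 22708 and 20303 had at least 1 count in WT mTEC 1, WT mTEC 2 and KO mTEC. That number was 19979, 19765, 20405 and 18704 in WT cTECs 1 to 4 and 17800 in KO cTEC. All members together held 1389 and 1857 CPM in WT mTECs, 2179 CPM in KO mTEC, 656.6, 356.7, 242.2 and 301.8 CPM in WT cTECs 1 to 4, and 203.7 CPM in KO cTEC. Penk, which encodes the enkephalin precursor, and Grp, which encodes gastrin-releasing peptide, made up 96.1% of the sum in KO cTEC and at most 25.7% in any other library. Without this pair the sum was 7.91 CPM in KO cTEC, against 180.1 to 564.6 CPM in WT cTECs. WT cTEC 1 had the largest cortical sum and was the highest cortical library for 19 of the 40 members, while the same was true of 32.2% of all genes tested. Its Aire level was also the highest of the 4, and the part of that in the sum was not tested.

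**Figure D2:**
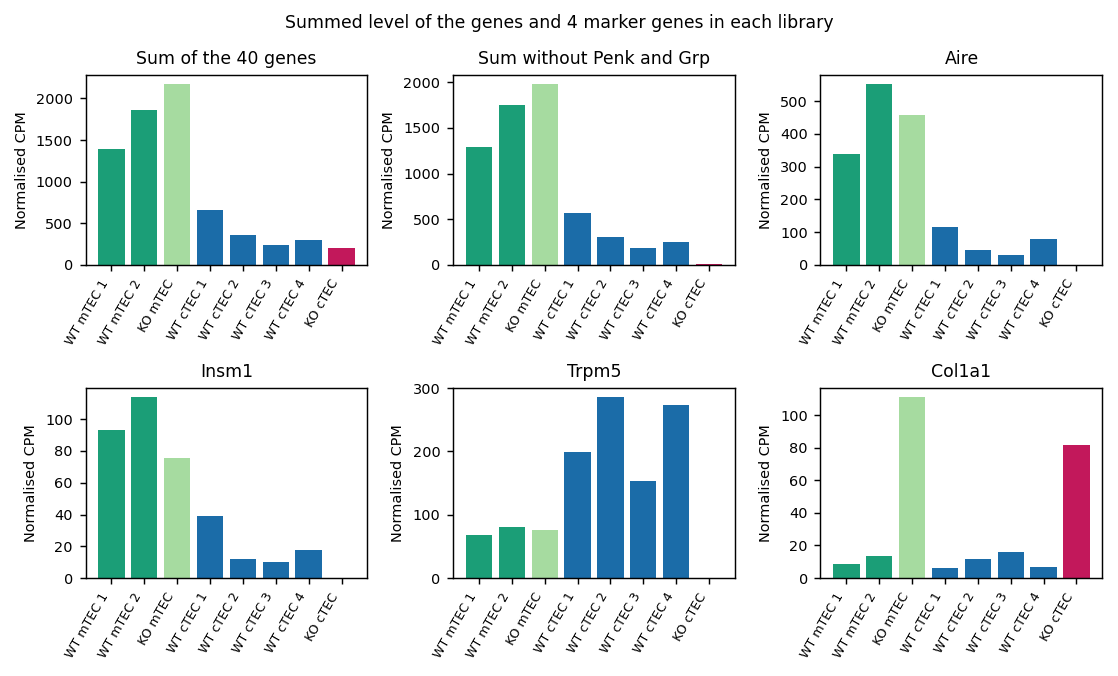
Summed CPM of the members and CPM of selected marker genes (y axes, each with its own scale) in each of the 8 libraries (x axis, 1 bar per library, no error bars). The sum without Penk and Grp falls to 7.91 CPM in KO cTEC, where Aire, Insm1 and Trpm5 are at 0 counts.

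Medullary against cortical epithelium in WT mice was the first comparison, and every call among members was in one direction. Of the 39 members that passed the filter on low counts, 25 were higher in WT mTECs by edgeR's quasi-likelihood test (adjusted p under 0.05 over 18163 genes), while 13.2% of all genes tested were called higher and 27.0% in either direction. None was called lower, against 13.9% of all genes. Unadjusted p was under 0.05 for 31 members and for 41.0% of all genes, and DESeq2 and limma-voom also called 0 lower. Crh, Uts2 and Nppb passed the filter only through mTEC libraries and so had to differ, and without them 22 of 36 members were called. The median log2 fold change was 3.26 over the members tested and 0.06 over all genes. Both WT mTEC libraries lay above all 4 WT cTEC libraries for 33 members, as they did for 30.3% of all genes. These 33, the median and the 31 with an unadjusted p under 0.05 include Crh, Uts2 and Nppb. The summed markers of dendritic cells and macrophages were also higher in WT mTECs than in WT cTECs. All 10 were found, and their sum ran from 791.1 to 1066 CPM in WT mTECs and from 140.8 to 256.4 CPM in WT cTECs. Most of it was Lyz2, at 740.6 and 995.2 CPM in WT mTECs and 120.8 to 223.2 CPM in WT cTECs. Of the 8 tested, 5 were called higher and 0 lower, and Ptprc was at 8.42 and 12.4 CPM against 7.24 to 19.8 CPM. The part of these markers in the result was not tested. With only 2 WT mTEC libraries the count of calls was sensitive to either one: leaving out WT mTEC 1 gave 13 called members, and leaving out WT mTEC 2 gave 8. The 8 calls that held in every alternative were those of Npy, Avp, Nts, Pomc, Ppy, Gip, Calca and Calcb. Without WT cTEC 1, the library that stood apart, 30 members were called higher. Shares of all genes called in these runs are not given here.

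**Figure D3:**
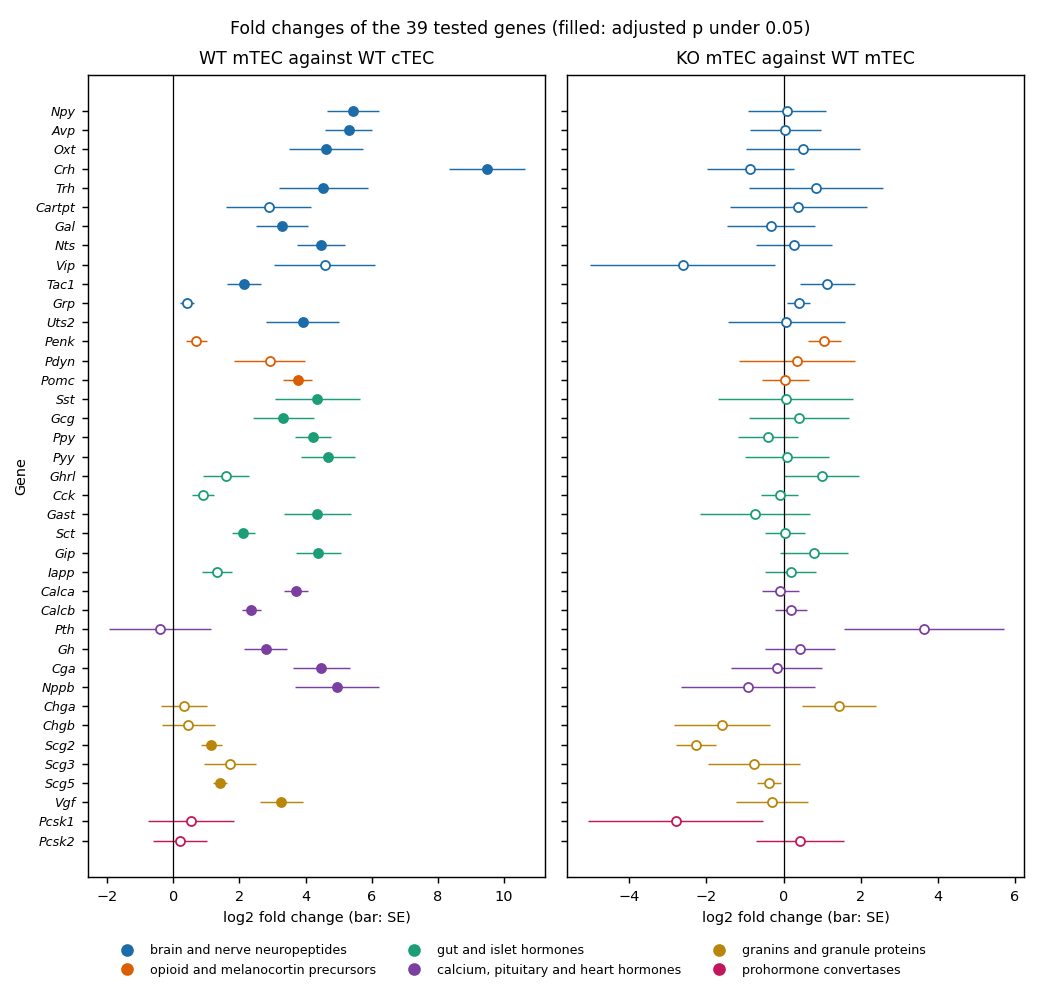
Log2 fold change (x axes) with SE bars for each of the 39 members tested (rows) between WT mTEC and WT cTEC and between KO mTEC and WT mTEC. In the comparison of WT groups 38 of the 39 points lie to the right of 0, against 52.7% of all genes. Crh, Uts2 and Nppb, among the 38, passed the filter only through mTEC libraries. In the comparison of KO with WT mTEC 31 of the 39 lie within 1 of 0, as 84.0% of all genes do.

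Of the brain and nerve neuropeptides, 9 of 12 were called higher in WT mTECs than in WT cTECs, and their median log2 fold change was 4.5. Both the count and the median include Crh and Uts2, which passed the filter only through mTEC libraries and so had to differ. Npy (chromosome 6, 49822710 to 49829507, GRCm38), which encodes the appetite-promoting neuropeptide Y, was at 21.3 and 31.4 CPM in WT mTECs 1 and 2, 28.0 CPM in KO mTEC, 0.571, 0.148, 0.109 and 1.54 CPM in WT cTECs 1 to 4 and 0 CPM in KO cTEC. Both mTEC libraries were far above every cortical one, and the log2 fold change was 5.43 ± 0.78, adjusted p = 0.00314. Avp (chromosome 2, 130580620 to 130582588), the gene for the water-retaining hormone vasopressin, was at 19.3 and 25.7 CPM in WT mTECs 1 and 2, 23.2 CPM in KO mTEC, 1.21, 0.443, 0.597 and 0.0548 CPM in WT cTECs 1 to 4 and 0 CPM in KO cTEC, a change of 5.30 ± 0.70, adjusted p = 0.00248. Its neighbour Oxt, 3.6 kb away, encodes oxytocin and was at 15.6 and 15.9 CPM in WT mTECs 1 and 2, 22.4 CPM in KO mTEC, 2.0, 0.59, 0 and 0.0548 CPM in WT cTECs 1 to 4 and 0.193 CPM in KO cTEC. The pair shares 53 of the 75-base stretches of their transcripts (10.5% of those of Avp and 11.4% of those of Oxt), so a small part of the reads could be assigned to either. Oxt was called (4.62 ± 1.13, adjusted p = 0.0211), but not without WT mTEC 1 (adjusted p = 0.0964), WT mTEC 2 (0.114) or WT cTEC 2 (0.0556).

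Nts, which encodes neurotensin, was at 112.5 and 129.1 CPM in WT mTECs 1 and 2, 147.1 CPM in KO mTEC, 13.0, 2.51, 0.977 and 5.59 CPM in WT cTECs 1 to 4 and 0 CPM in KO cTEC. It rose in mTECs on the log2 scale by 4.47 ± 0.73, adjusted p = 0.00553, with no overlap of the groups. Gal, for galanin, was at 79.0 and 106.8 CPM in WT mTECs 1 and 2, 73.8 CPM in KO mTEC, 5.99, 8.56, 1.14 and 22.3 CPM in WT cTECs 1 to 4 and 0.0643 CPM in KO cTEC. WT cTEC 4 was the highest cortical library here and still lay below both mTEC libraries (3.29 ± 0.79, adjusted p = 0.0202). Tac1, the precursor of substance P, was at 19.1 and 36.0 CPM in WT mTECs 1 and 2, 60.9 CPM in KO mTEC, 5.64, 6.42, 10.6 and 2.14 CPM in WT cTECs 1 to 4 and 0 CPM in KO cTEC (2.15 ± 0.51, adjusted p = 0.0186). The hypothalamic releasing-hormone genes were at or near 0 in most WT cTEC libraries. Crh, for corticotropin-releasing hormone, was at 3.85 and 7.29 CPM in WT mTECs, 3.07 CPM in KO mTEC and 0 counts in all 4 WT cTEC libraries. With 3 counts over the group as the limit of a count of 0, its WT mTEC mean was at least 119.3-fold higher (adjusted p = 0.00558). Trh, for thyrotropin-releasing hormone, was at 6.0 and 11.6 CPM in WT mTECs 1 and 2, 15.7 CPM in KO mTEC, 1.5, 0, 0 and 0.0548 CPM in WT cTECs 1 to 4 and 0 CPM in KO cTEC. Its call (4.54 ± 1.34, adjusted p = 0.039) rested on several libraries, since it was lost without WT mTEC 1 or 2 (adjusted p = 0.115 and 0.211) or any of WT cTECs 2, 3 and 4 (0.0749, 0.0691 and 0.0665), and also by DESeq2 (0.195), with no filter on low counts (0.0519) and under the replicate block (0.141). Uts2, which encodes the vasoactive peptide urotensin 2, was at 2.31 and 5.28 CPM in WT mTECs 1 and 2, 3.98 CPM in KO mTEC, 0, 0.738, 0.109 and 0.165 CPM in WT cTECs 1 to 4 and 0.129 CPM in KO cTEC, and all 4 cortical values were below the medullary ones (3.91 ± 1.11, adjusted p = 0.0339). The call of Uts2 was lost without WT mTEC 1 or 2 (adjusted p = 0.103 and 0.244), WT cTEC 3 (0.0832) or WT cTEC 4 (0.0511), and under the replicate block (0.0865). Gal and Tac1 were not called without WT mTEC 1 (0.0741 and 0.0534) or WT mTEC 2 (0.12 and 0.18). Gal was also not called without WT cTEC 2 (0.0522), nor Crh without WT mTEC 2 (0.0707).

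The remaining 3 neuropeptides did not pass the test between WT mTECs and WT cTECs. Vip, for vasoactive intestinal peptide, was at 5.17 and 14.8 CPM in WT mTECs 1 and 2, 1.63 CPM in KO mTEC, 0, 0, 1.57 and 0 CPM in WT cTECs 1 to 4 and 0 CPM in KO cTEC, a difference of 4.58 ± 1.52, adjusted p = 0.0552. Cartpt, for a peptide regulated by psychostimulants, ranged from 2.86 to 4.79 CPM over the 3 mTEC libraries and from 0 to 1.62 CPM over the 5 cortical ones. Grp was at 25.9 and 33.3 CPM in WT mTECs 1 and 2, 38.9 CPM in KO mTEC, 19.6, 19.4, 25.5 and 24.1 CPM in WT cTECs 1 to 4 and 22.5 CPM in KO cTEC (0.42 ± 0.21, adjusted p = 0.177), so it was found at 19.4 CPM or more in all 8 libraries.

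Among the opioid and melanocortin precursors only Pomc was called. Pomc, the precursor of corticotropin and beta-endorphin, was at 58.2 and 99.9 CPM in WT mTECs 1 and 2, 81.6 CPM in KO mTEC, 6.21, 10.5, 3.48 and 3.46 CPM in WT cTECs 1 to 4 and 1.29 CPM in KO cTEC. Both medullary libraries lay above all cortical ones, with a log2 fold change of 3.76 ± 0.44, adjusted p = 0.0017. Penk (chromosome 4, 4133536 to 4138815) was at 75.2 and 71.0 CPM in WT mTECs 1 and 2, 152.7 CPM in KO mTEC, 72.4, 37.9, 36.7 and 32.5 CPM in WT cTECs 1 to 4 and 173.3 CPM in KO cTEC. WT cTEC 1 was level with the WT mTECs and the other 3 cortical libraries were lower (0.70 ± 0.31, adjusted p = 0.12). An opposite-strand transcript, A830012C17Rik, overlaps 233 exon bases of Penk and is not analysed here, and the library kit does not mark strand. Ghrl, Cga and Pcsk2 also have opposite-strand partners, with 169, 305 and up to 260 shared exon bases. Pdyn, the dynorphin precursor, ranged from 4.62 to 8.67 CPM in the 3 mTEC libraries and from 0 to 2.14 CPM in the 5 cortical ones.

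Gut and islet hormones were called higher in WT mTECs for 7 of 10 members, with a median log2 fold change of 3.78. Pyy, for the satiety hormone peptide YY of the distal gut, was at 72.3 and 108.7 CPM in WT mTECs 1 and 2, 96.5 CPM in KO mTEC, 6.78, 5.68, 0.217 and 1.76 CPM in WT cTECs 1 to 4 and 0 CPM in KO cTEC, a change of 4.68 ± 0.82, adjusted p = 0.00679. Ppy, for pancreatic polypeptide, lies 5.4 kb from Pyy on chromosome 11 and was at 35.7 and 62.9 CPM in WT mTECs 1 and 2, 37.3 CPM in KO mTEC, 3.71, 0.664, 1.95 and 4.06 CPM in WT cTECs 1 to 4 and 0 CPM in KO cTEC. It rose on the log2 scale by 4.23 ± 0.55, adjusted p = 0.00234. Gcg, the precursor of glucagon and the glucagon-like peptides, was at 25.3 and 34.4 CPM in WT mTECs 1 and 2, 39.7 CPM in KO mTEC, 2.92, 7.97, 0.272 and 0.932 CPM in WT cTECs 1 to 4 and 0 CPM in KO cTEC (3.33 ± 0.93, adjusted p = 0.0333). Sst, for the inhibitory hormone somatostatin, was at 20 and 35.5 CPM in WT mTECs 1 and 2, 29.0 CPM in KO mTEC, 5.14, 0.295, 0.109 and 0.0548 CPM in WT cTECs 1 to 4 and 0 CPM in KO cTEC. WT cTEC 1 stood well above the other 3 cortical libraries (4.35 ± 1.28, adjusted p = 0.04). Gip, for the incretin of the proximal gut, was at 23.1 and 29.6 CPM in WT mTECs 1 and 2, 45.8 CPM in KO mTEC, 3.21, 0.443, 0.543 and 0.878 CPM in WT cTECs 1 to 4 and 0 CPM in KO cTEC and rose by 4.39 ± 0.67, adjusted p = 0.00404. Sct, for secretin, was at 34.7 and 45.6 CPM in WT mTECs 1 and 2, 41.4 CPM in KO mTEC, 7.35, 8.63, 5.97 and 14.9 CPM in WT cTECs 1 to 4 and 0.45 CPM in KO cTEC. All cortical values were below the medullary ones (2.12 ± 0.35, adjusted p = 0.00516). Gast, for the acid-stimulating hormone gastrin, was at 7.21 and 11.8 CPM in WT mTECs 1 and 2, 5.69 CPM in KO mTEC, 0.571, 1.11, 0 and 0.219 CPM in WT cTECs 1 to 4 and 0 CPM in KO cTEC (4.35 ± 1.01, adjusted p = 0.0171).

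Several of these gut and islet calls needed both WT mTEC libraries. Without WT mTEC 2 the adjusted p was 0.0636 for Pyy, 0.0673 for Sct, 0.137 for Gast, 0.167 for Gcg and 0.198 for Sst. Without WT mTEC 1 it was 0.0734 for Gast, 0.107 for Gcg and 0.112 for Sst. Gcg was also lost without WT cTEC 4 (0.0609), and Sst without WT cTEC 2, 3 or 4 (0.086, 0.07 and 0.0545). The call of Sst was lost as well by DESeq2 (0.068), with no filter on low counts (0.0796) and under the replicate block (0.162), and that of Gcg with no filter (0.0587). The 3 members not called were Iapp, Ghrl and Cck. Iapp, for the islet amyloid polypeptide that beta cells release with insulin, was at 52.0 and 44.4 CPM in WT mTECs 1 and 2, 55.0 CPM in KO mTEC, 29.5, 14.0, 7.49 and 25.9 CPM in WT cTECs 1 to 4 and 0 CPM in KO cTEC (1.33 ± 0.46, adjusted p = 0.0625). Ghrl, for the hunger hormone ghrelin, was at 14.6 and 11.4 CPM in WT mTECs 1 and 2, 25.8 CPM in KO mTEC, 10.7, 2.58, 1.57 and 2.41 CPM in WT cTECs 1 to 4 and 0 CPM in KO cTEC. WT cTEC 1 nearly reached the medullary level of Ghrl while the others did not (1.60 ± 0.69, adjusted p = 0.121). Cck, for cholecystokinin, which empties the gall bladder, ranged from 18.6 to 23.8 CPM in the 3 mTEC libraries and from 6.64 to 14.0 CPM in WT cTECs (0.89 ± 0.33, adjusted p = 0.0771).

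Of the calcium, pituitary and heart hormones, 5 of the 6 tested were called higher in WT mTECs, with a median log2 fold change of 3.25. Both the count and the median include Nppb, which passed the filter only through mTEC libraries and so had to differ. Calcb (chromosome 7, 114716555 to 114723368) encodes the beta form of calcitonin gene-related peptide, a vasodilator. It was at 304.8 and 411.6 CPM in WT mTECs 1 and 2, 411.0 CPM in KO mTEC, 107.1, 60, 54.1 and 58.7 CPM in WT cTECs 1 to 4 and 0.9 CPM in KO cTEC. The groups were far apart and the change was 2.36 ± 0.28, adjusted p = 0.00175. Calca, 79.6 kb away, encodes calcitonin and the alpha form of the same peptide, and was at 82.3 and 138.6 CPM in WT mTECs 1 and 2, 104.8 CPM in KO mTEC, 6.21, 12.2, 10.1 and 5.32 CPM in WT cTECs 1 to 4 and 0 CPM in KO cTEC (3.71 ± 0.35, adjusted p = 0.000984). The transcripts of Calca and Calcb share no stretch of 75 bases. Cga, the common alpha subunit of pituitary glycoprotein hormones, was at 16.0 and 25.9 CPM in WT mTECs 1 and 2, 18.5 CPM in KO mTEC, 1.21, 1.33, 1.25 and 0 CPM in WT cTECs 1 to 4 and 0 CPM in KO cTEC, a change of 4.48 ± 0.87, adjusted p = 0.00907. Gh, for growth hormone, was at 7.76 and 10.8 CPM in WT mTECs 1 and 2, 12.5 CPM in KO mTEC, 1.78, 0.59, 0.543 and 2.41 CPM in WT cTECs 1 to 4 and 0 CPM in KO cTEC (2.79 ± 0.64, adjusted p = 0.0163). Nppb, for a natriuretic peptide of the heart, was at 3.47 and 5.13 CPM in WT mTECs 1 and 2, 2.26 CPM in KO mTEC, 0.499, 0, 0.0543 and 0 CPM in WT cTECs 1 to 4 and 0 CPM in KO cTEC. Its level was low in all groups (4.94 ± 1.27, adjusted p = 0.0235).

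The calls of Calca and Calcb held in every alternative, and those of the pituitary and heart genes did not. Without WT mTEC 2 the adjusted p was 0.0884 for Cga, 0.133 for Gh and 0.153 for Nppb. Without WT mTEC 1 it was 0.0725 for Gh and 0.1 for Nppb, and without WT cTEC 3 it was 0.0633 for Nppb. Nppb was also lost under the replicate block (0.0864). Prl, for prolactin, had 5 and 3 counts in WT mTECs and 0 in all other libraries, and was not tested. Pth, for parathyroid hormone, was uneven among WT cTECs, at 25.0 and 16.1 CPM in WT mTECs 1 and 2, 255.3 CPM in KO mTEC, 84.9, 22.7, 0.217 and 1.21 CPM in WT cTECs 1 to 4 and 0.321 CPM in KO cTEC. WT cTEC 1 lay above both WT mTEC libraries, while WT cTECs 3 and 4 were near 0, and the difference between the groups was -0.40 ± 1.54, adjusted p = 0.868. It turned to 1.41 without WT cTEC 1 (adjusted p = 0.419) and was 2.37 by limma-voom.

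Of the granins, which package peptides into granules, 3 of 6 were called higher in WT mTECs and the median log2 fold change was 1.28. Scg5 (chromosome 2, 113776313 to 113829091), which encodes the chaperone 7B2 of prohormone convertase 2, was at 71.3 and 78.1 CPM in WT mTECs 1 and 2, 57.3 CPM in KO mTEC, 34.6, 22.2, 25.0 and 30.3 CPM in WT cTECs 1 to 4 and 0.257 CPM in KO cTEC (1.41 ± 0.21, adjusted p = 0.0033). Scg2, the secretogranin that yields secretoneurin, was at 19.0 and 31.9 CPM in WT mTECs 1 and 2, 5.24 CPM in KO mTEC, 14.5, 9.22, 9.94 and 12.3 CPM in WT cTECs 1 to 4 and 0.386 CPM in KO cTEC (1.15 ± 0.31, adjusted p = 0.0293). Vgf, a granule protein induced by nerve growth factor, was at 6.05 and 7.4 CPM in WT mTECs 1 and 2, 5.51 CPM in KO mTEC, 1.14, 0.443, 0.923 and 0.274 CPM in WT cTECs 1 to 4 and 0 CPM in KO cTEC (3.26 ± 0.65, adjusted p = 0.00977). All 3 were lost without WT mTEC 2, at an adjusted p of 0.0515, 0.346 and 0.099. Scg2 and Vgf were lost without WT mTEC 1 (0.0658 and 0.0641), and Scg2 without WT cTEC 2 or 3 (0.0676 and 0.0753) or under the replicate block (0.142).

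Chga (chromosome 12, 102554941 to 102565027), the chromogranin used to mark endocrine cells, was at 78.2 and 93.9 CPM in WT mTECs 1 and 2, 232.7 CPM in KO mTEC, 154.7, 72.4, 20.5 and 29.0 CPM in WT cTECs 1 to 4 and 0 CPM in KO cTEC. WT cTEC 1 lay above both WT mTECs and WT cTECs 2 to 4 lay below them, and the difference was not called (0.32 ± 0.70, adjusted p = 0.762). Chgb, the second chromogranin, was at 15.2 and 16.1 CPM in WT mTECs 1 and 2, 5.15 CPM in KO mTEC, 29.5, 5.02, 3.04 and 7.95 CPM in WT cTECs 1 to 4 and 0.193 CPM in KO cTEC, with WT cTEC 1 above both WT mTECs (0.46 ± 0.79, adjusted p = 0.689). Scg3, which anchors cargo to granule membranes, was below 3.2 CPM in all 8 libraries. The prohormone convertases were low in every library: Pcsk1 ranged from 0 to 5.35 CPM and Pcsk2 from 0.129 to 4.5 CPM. Both WT groups overlapped for each convertase.

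Levels can be ranked between members only per transcript length, as mean CPM per kb of the counted gene model. In WT mTECs the highest were Calcb at 372.4, Pyy at 181.4, Gal at 132.9, Ppy at 102.6 and Nts at 102.4 CPM per kb, and in WT cTECs Calcb was again first at 72.7 CPM per kb. Ranks over the 40 members were much alike between WT mTECs and KO mTEC (Spearman's rho 0.9 across genes, which are not independent replicates), and 0.97 between both WT mTEC libraries. WT mTEC 2 was above WT mTEC 1 for 35 of 40 members, against 52.0% of all genes tested.

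**Figure D4:**
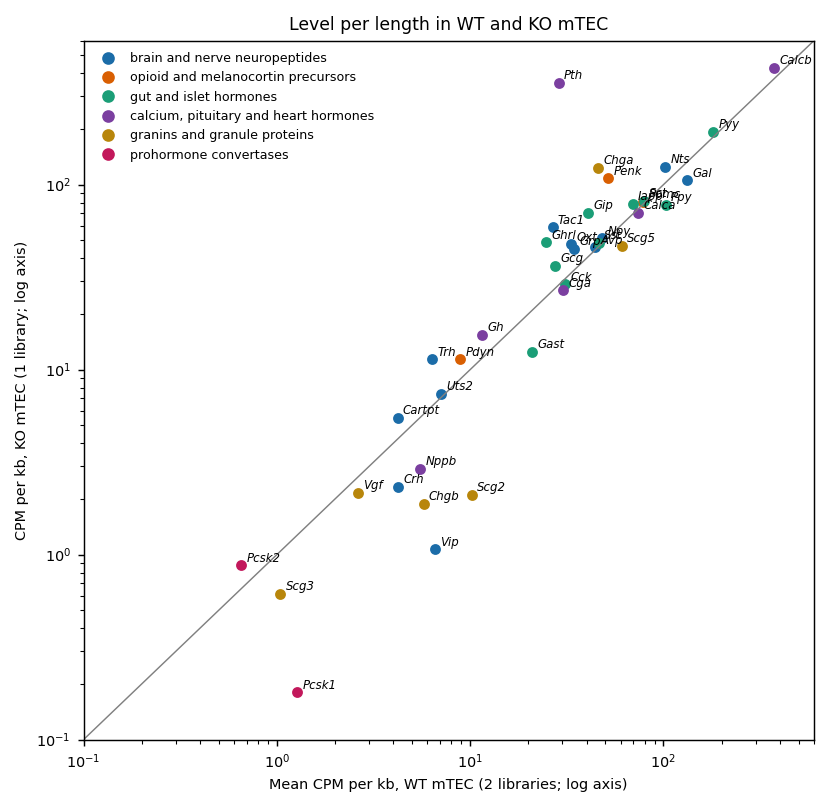
Level of each member per length in WT mTEC (x axis, mean CPM per kb of 2 libraries, log axis) and in KO mTEC (y axis, 1 library, log axis), with the line of equality. Calcb is highest on both axes, Pth and Chga lie above the line, and Scg2, Chgb, Vip and Pcsk1 lie below it.

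The KO cTEC library held no count for 26 of the 40 members, most of which the WT cTEC libraries held. Of all 27179 identifiers, 17800 had at least 1 count in KO cTEC. Against WT cTECs, 13 of 39 members were called lower by edgeR, beside 12.4% of all genes tested, and 1 was called higher, beside 5.10%. KO cTEC lay below all 4 WT cTEC libraries for 25 members (32.9% of all genes) and above them for 1 (29.0%). The median fitted log2 change was -6.36 over the members and -0.14 over all genes. With genes at 0 counts set to the limit of 3 counts, it was -2.86 over 37 members and -0.12 over all genes. The 26 members at 0 counts in KO cTEC could each hold up to 0.193 CPM, a limit that covers counting error only. With 1 KO library, its variation was taken to be that of the WT libraries. The count of lower members depended on the tool, at 24 by DESeq2 and 2 (Calcb and Scg5) by limma-voom, which lost the other 11. The shares of all genes called by those tools are not given here.

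**Figure D5:**
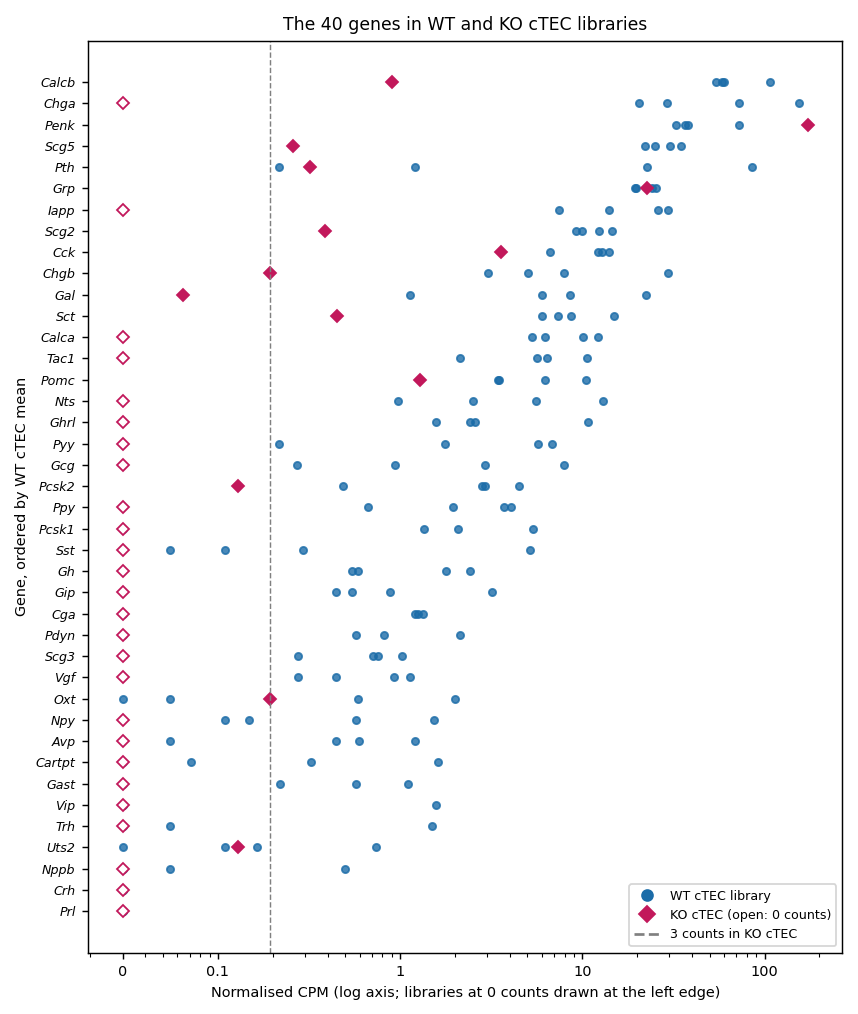
CPM of each member (rows; log x axis with 0 drawn at the left edge) in the 4 WT cTEC libraries and in KO cTEC, with the level of 3 counts in KO cTEC marked. KO cTEC lies left of all WT points for 25 members, right of them for Penk and among them for Grp.

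Of the granins, 5 of 6 were called lower in KO cTEC. Chga went from 69.1 ± 61.4 CPM in WT cTECs (SD, n = 4) to 0 counts, at least 358.6-fold lower (adjusted p = 0.0143). Scg5 went from 28.0 ± 5.53 CPM (SD, n = 4) to 4 counts, a ratio of 109.0 (95% counting interval 42.6 to 400.1) and a log2 fold change of -6.73 ± 0.51, adjusted p = 0.00017. Scg2 kept 6 counts, a ratio of 29.8 (13.7 to 81.1; -4.87 ± 0.64, adjusted p = 0.0017). Chgb kept 3 counts, a ratio of 59.1 (20.2 to 286.4; adjusted p = 0.0494). Vgf had 0 counts, which is at least 3.61-fold below WT cTECs (adjusted p = 0.0489). Chgb was not called without WT cTEC 2 or 4 (adjusted p = 0.0594 and 0.0729), nor Vgf without WT cTEC 2 or 3 (0.0639 and 0.0807). Chgb was also lost with RLE factors (0.0521), library totals (0.0528) and no filter on low counts (0.0664), and Vgf with library totals (0.0511) and no filter (0.0573). Against the mean of WT cTECs 2 to 4 alone, Chga was at least 210.8-fold lower and the ratio of Chgb 27.7, since WT cTEC 1 held the most of both.

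Of the gut and islet hormones, Iapp, Ghrl, Ppy and Sct were called lower in KO cTEC. Iapp was at 29.5, 14.0, 7.49 and 25.9 CPM in WT cTECs 1 to 4, and its 0 counts in KO cTEC put it at least 99.8-fold below their mean (adjusted p = 0.00372). The bound was 22.4-fold for Ghrl (0.0306) and 13.5-fold for Ppy (0.0292). Sct kept 7 counts, a ratio of 20.5 (9.93 to 50.9; -4.33 ± 0.72, adjusted p = 0.00504). Gcg, Pyy, Sst, Gip and Gast were also at 0 counts, with bounds of at least 15.7-, 18.7-, 7.25-, 6.58- and 2.46-fold, and were not called (adjusted p from 0.0769 for Gip to 0.216 for Gast). Several of these bounds rested on 1 library. Without WT cTEC 1 the bound was 11.4-fold for Ghrl and 3.22-fold for Gip, and Sst had none, since its other 3 cortical libraries averaged 0.153 CPM, below the limit of 0.193 CPM. Without WT cTEC 2 it was 7.14-fold for Gcg and 1.37-fold for Gast. Cck, at 3.6 CPM against 12.8, 12.2, 14.0 and 6.64 CPM in WT cTECs 1 to 4, was not called either (-1.66 ± 0.50, adjusted p = 0.0557).

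Of the calcium, pituitary and heart hormones, 3 of the 6 tested were called lower. Calcb went from 70.0 ± 24.9 CPM (SD, n = 4) to 14 counts, a ratio of 77.8 (46.4 to 142.2; -6.27 ± 0.63, adjusted p = 0.00049). Calca had 0 counts, which is at least 43.9-fold below WT cTECs (adjusted p = 0.00248), and for Gh this bound was 6.91-fold (0.0372). Pth kept 5 counts against uneven WT cTEC values, and was not called (adjusted p = 0.251), though DESeq2 called it lower (adjusted p = 0.0432). Among the neuropeptides only Tac1 was called lower, at 0 counts and at least 32.1-fold (adjusted p = 0.011). Nts was at least 28.6-fold lower in value (0.0744) and Gal kept 1 count, a ratio of 147.7 with an interval of 26.5 to 5832 (0.0737), and neither was called. Pomc stood at 20 counts, a ratio of 4.59 (2.97 to 7.52), with an adjusted p of 0.0895. Of the prohormone convertases, Pcsk1 had 0 counts (at least 11.4-fold lower, 0.166) and Pcsk2 had 2 counts (a ratio of 20.8, interval 5.77 to 172.1, 0.0951). Without WT cTEC 1 the bound was 15.7-fold for Nts and 5.92-fold for Pcsk1, and without WT cTEC 4 the ratio of Gal was 81.4.

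Penk and Grp departed from this pattern. Penk was at 173.3 CPM in KO cTEC (2696 counts) against 72.4, 37.9, 36.7 and 32.5 CPM in WT cTECs 1 to 4, above all of them, and was called higher (1.95 ± 0.36, adjusted p = 0.00802). This call held in every alternative run, including the one without WT cTEC 1. Grp was at 22.5 CPM against 22.1 ± 3.09 CPM (SD, n = 4; 0.02 ± 0.28, adjusted p = 0.972). Some fibroblast markers were high beside Penk: Col1a1 was at 81.6 CPM in KO cTEC and 5.92 to 15.7 CPM in WT cTECs, and 111.2 CPM in KO mTEC against 8.36 and 13.8 CPM in WT mTECs. Col1a2, Lum and Pdgfra also lay above all WT cTECs in KO cTEC. Col3a1, Dcn and Pdgfrb lay inside the WT cTEC range there, and Thy1 lay below it. The sum of all 8 fibroblast markers was 1048 CPM in KO cTEC, 716.4 to 924.3 CPM in WT cTECs, 1134 CPM in KO mTEC and 150.8 and 182.0 CPM in WT mTECs, and its part in the Penk level was not tested. The neuronal markers Rbfox3, Elavl3, Elavl4 and Snap25 were at 0 counts in KO cTEC. For Elavl3 the WT cTEC mean of 0.178 CPM was itself below the limit of 0.193 CPM. Nefm went the other way, at 24.8 CPM in KO cTEC against 7.28 to 11.5 CPM in WT cTECs. The sum of all 10 neuronal markers was 57.7 CPM in KO cTEC against 96.4 to 118.4 CPM in WT cTECs.

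Regulators of medullary and mimetic cells were also low in KO cTEC, but not every medullary marker was. Of the 10 mature mTEC markers, Aire, Fezf2, Tnfrsf11a, Cd80, Cd40 and Ctss were called lower, and the class II genes Cd74, H2-Aa and H2-Ab1 were not called (adjusted p = 0.849, 0.766 and 0.835). The sum of all 10 was 21529 CPM in KO cTEC, inside the 18156 to 25985 CPM of WT cTECs. Insm1 was at 0 counts (at least 101.9-fold below its WT cTEC mean of 19.7 CPM, and 68.0-fold without WT cTEC 1), Aire at 0 counts (at least 349.1-fold) and Fezf2 at 5 counts (a ratio of 335.0, interval 143.5 to 1032). The tuft cell channel Trpm5 was at 0 counts against 153.5 to 286.0 CPM in WT cTECs, and the sum of all 10 tuft markers was 38.9 CPM against 1163 to 1927 CPM. Neither was higher in WT mTECs than in WT cTECs, at 67.6 and 80.3 CPM for Trpm5 and 866.8 and 990.6 CPM for the sum. The dendritic cell and macrophage sum was 15.8 CPM in KO cTEC against 140.8 to 256.4 CPM in WT cTECs, most of it Lyz2 (9.25 CPM against 120.8 to 223.2 CPM). The part of these populations in the loss of hormone transcripts was not tested.

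The KO mTEC library held 39 of the 40 hormone and granule transcripts, and no difference from WT mTECs passed the test. No member and no other gene of the 18163 tested was called by edgeR (0%), and the median log2 change was 0.07 over the members and -0.03 over all genes. At an unadjusted p under 0.05 there were 2 members, Scg2 and Penk, and 8.27% of all genes. DESeq2 called 1 member, Scg2, lower, and limma-voom called 0, with the share of all genes given for neither. Of the 39 members, 31 changed by less than 1 on the log2 scale, as 84.0% of all genes did. KO mTEC lay above both WT mTEC libraries for 14 members (38.6% of all genes) and below both for 11 (41.7%). A single KO library and 2 WT libraries give this comparison little power, and the values that follow are descriptions.

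Differences over 1 on the log2 scale were seen for 8 members, higher in KO mTEC for Pth, Chga, Penk and Tac1 and lower for Scg2, Chgb, Pcsk1 and Vip. Scg2 was at 5.24 CPM against 19.0 and 31.9 CPM in WT mTECs 1 and 2 (-2.28 ± 0.52, adjusted p = 0.34, DESeq2 adjusted p = 0.0176). Chgb was at 5.15 CPM against 15.2 and 16.1 CPM (-1.60 ± 1.24, adjusted p = 0.803), and Pcsk1 at 0.452 CPM against 2.04 and 4.33 CPM (-2.80 ± 2.27, adjusted p = 0.811). Chga went the other way, at 232.7 CPM against 78.2 and 93.9 CPM (1.44 ± 0.96, adjusted p = 0.765). Tac1 was at 60.9 CPM against 19.1 and 36.0 CPM (1.14 ± 0.72, adjusted p = 0.744), and Vip at 1.63 CPM against 5.17 and 14.8 CPM (-2.62 ± 2.40, adjusted p = 0.845). Penk, the enkephalin precursor, was at 152.7 CPM against 75.2 and 71.0 CPM (1.06 ± 0.43, adjusted p = 0.578), so it lay above every WT library of its population in both KO libraries. Taken singly, this held for 38.6% of all genes in KO mTEC and 29.0% in KO cTEC, and the share for both together was not computed. Pth was at 255.3 CPM against 25.0 and 16.1 CPM, 12.4-fold (3.64 ± 2.07, adjusted p = 0.701). The parathyroid regulators beside it were at 3.8 CPM for Gcm2, against 1.93 and 2.06 CPM, and 10.3 CPM for Casr, the calcium sensor, against 8.58 and 10.5 CPM, and their part in the Pth level was not tested.

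The difference between the KO effects of both populations was tested directly. It was called for 7 of 39 members, all in the direction of a lower cortical value relative to the medullary one, while 6.16% of all genes were called in that direction and 6.81% in either. No member was called in the other direction by edgeR, DESeq2 or limma-voom (0.644% of all genes by edgeR). Unadjusted p was under 0.05 in either direction for 23 members and for 19.3% of all genes. Calcb was at 0.9 CPM in KO cTEC against a WT mean of 70.0 CPM, and at 411.0 CPM in KO mTEC against 358.2 CPM, a difference of 6.47 ± 0.71, adjusted p = 0.00149. Scg5 differed by 6.34 ± 0.57, adjusted p = 0.000815 and Sct by 4.38 ± 0.85, adjusted p = 0.0193. Chga, Tac1, Iapp and Calca had 0 counts in KO cTEC, so the sizes fitted for them depend on the prior, and their adjusted p-values were 0.0227, 0.0179, 0.0105 and 0.00862. Chga and Sct were lost without WT mTEC 1 (adjusted p = 0.0636 and 0.0709) or WT mTEC 2 (0.0579 and 0.0542). Chga was lost too with no filter on low counts (0.0635). Mcl1 itself differed in the same direction by 3.96 ± 0.50, adjusted p = 0.00277, at 8.23 CPM in KO cTEC against 227.8 to 301.9 CPM in WT cTECs and at 78.7 CPM in KO mTEC against 112.7 and 203.5 CPM, and the part of this unequal loss in the members' differences was not tested. DESeq2 called 15 members and limma-voom 0, with the share of all genes given for neither, so none of the 7 calls held under every alternative.

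Genes of the rest of the pathway were taken from lists, each read against the shares of all genes called: 13.2% higher and 13.9% lower between the WT groups, and 12.4% lower and 5.10% higher in KO cTEC. Genes that passed the filter only through mTEC libraries had to be higher in mTECs, so counts between the WT groups leave them out. The list for peptide processing also holds Ddc and Scgn, which do not cut or amidate peptides. Of its 13 other genes, 3 were higher in WT mTECs than WT cTECs (Pam, Ddc and Scgn) and 5 lower, and Cpz was left out. The higher ones included Pam, the enzyme that amidates peptide ends, at 135.1 and 111.0 CPM in WT mTECs and 42.9, 72.1, 76.6 and 56.4 CPM in WT cTECs 1 to 4 (0.99 ± 0.24, adjusted p = 0.0185), and Ddc, which makes amine transmitters, at 32.9 and 37.1 CPM and 19.3, 5.97, 7.17 and 9.05 CPM (1.75 ± 0.43, adjusted p = 0.0208). The lower ones included Ctsl, a cathepsin that is also on the cTEC marker list, at 919.8 and 554.2 CPM and 5050, 3087, 3827 and 2136 CPM (-2.26 ± 0.38, adjusted p = 0.00575). In KO cTEC 3 of 14 tested were lower, namely Pam, Ddc and Pcsk5, with Pam at 17.2 CPM (-1.85 ± 0.36, adjusted p = 0.0103). Pcsk6, a convertase of the constitutive pathway, was higher there at 159.1 CPM against 15.3, 27.9, 31.8 and 26.1 CPM in WT cTECs (2.65 ± 0.36, adjusted p = 0.00188).

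Genes of vesicle release were counted next. Of 31 that passed through cortical libraries too, 6 were higher and 1 lower in WT mTECs than WT cTECs, and Syt4, Rab3c and Cplx1 were left out. In KO cTEC 15 of 34 tested were called, each of them lower (12.4% of all genes), with a median of -2.11. Snap25, the membrane fusion protein, was at 4.78, 4.13, 5.81 and 4.72 CPM in WT cTECs 1 to 4, and its 0 counts in KO cTEC put it at least 25.2-fold below their mean (adjusted p = 0.000606). Rims2, which docks vesicles at release sites, was at least 51.1-fold lower (0.00049) and Syt5, a calcium sensor of granules, at least 21.7-fold lower (0.00942). The KO effects of 11 of the 34 differed between populations, each toward a lower cortical value, while 6.16% of all genes were called in that direction.

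Of 13 endocrine transcription factors, 2 were higher in WT mTECs and 1 lower, which is near the shares of all genes, and Neurod2, Insm2, Pax4 and Pou1f1 were left out. Insm1 was at 93.3 and 114.0 CPM in WT mTECs, 75.7 CPM in KO mTEC and 39.3, 11.7, 9.99 and 17.7 CPM in WT cTECs 1 to 4 (2.40 ± 0.48, adjusted p = 0.0108). Isl1, a LIM homeodomain factor of endocrine and nerve cells, was the lower one, at 83.2 and 79.3 CPM against 163.9, 187.6, 258.1 and 252.5 CPM (-1.41 ± 0.23, adjusted p = 0.00487). In KO cTEC 5 of 17 tested were called, each of them lower, including Insm1 (adjusted p = 0.00629) and Rfx6, a factor of islet and gut endocrine cells, at 0 counts and at least 13.2-fold lower (0.0341). Isl1 was at 233.8 CPM in KO cTEC, inside the WT cTEC range.

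Of 27 hormone and neuropeptide genes outside the 40, 9 were called between WT mTECs and WT cTECs, each of them higher in mTECs. Left out were 9 that passed only through mTEC libraries, 3 of which follow as values. Nms, for the circadian peptide neuromedin S, was at 4.84 and 10.7 CPM in WT mTECs and 0, 0, 0.326 and 0 CPM in WT cTECs 1 to 4. Npw, for neuropeptide W, was at 1.38 and 0.528 CPM and 0.0713, 0, 0 and 0 CPM, and Hcrt, for the wake-promoting orexins, at 0.935 and 1.32 CPM and 0 counts in all 4 WT cTEC libraries. In KO cTEC 7 of 36 tested were called, each of them lower. Uts2b, a relative of urotensin 2, was at 0 counts and at least 33.2-fold lower (0.000665), and Rln3, for relaxin 3, at 0 counts and at least 13.8-fold lower (0.0231), or 8.98-fold without WT cTEC 2.

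Calls among the receptors of the member peptides showed no single direction. Of 29 that passed through cortical libraries too, 4 were higher and 4 lower in WT mTECs, near the shares of all genes. Grpr, the receptor of gastrin-releasing peptide, was at 9.3 and 7.71 CPM in WT mTECs and 2.14, 0.443, 0.163 and 0.165 CPM in WT cTECs 1 to 4 (3.56 ± 0.98, adjusted p = 0.0299). Calcr, the calcitonin receptor, is 1 of 7 that passed only through mTEC libraries, and was at 2.81 and 9.88 CPM and 0.927, 0.516, 0 and 0 CPM. Npr3, the clearance receptor of natriuretic peptides, was lower, at 0.605 and 0.0528 CPM and 7.49, 2.36, 3.2 and 4.17 CPM (-3.68 ± 1.03, adjusted p = 0.0321). In KO cTEC 5 of 36 tested were lower and 2 higher, again near the shares of all genes. The median fitted log2 change there was -3.44, against -0.14 over all genes. Of the 55 listed receptors, 28 were at 0 counts in KO cTEC, some of them at 0 in every WT cTEC library as well. Npr1, the signalling receptor of natriuretic peptides, was at 74.4 CPM against 4.92, 5.16, 5.92 and 8.78 CPM (3.58 ± 0.35, adjusted p = 0.000463) and Calcrl, the receptor of calcitonin gene-related peptide, at 4.63 CPM against 77.1, 27.3, 48.1 and 37.6 CPM (-3.36 ± 0.66, adjusted p = 0.0103). No gene of these 5 lists was called in KO mTEC by edgeR, where 0 of all 18163 genes tested were called, so this is not particular to the lists.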

How the data were processed

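Polyadenylated RNA of 8 libraries was turned into cDNA by a kit for small inputs, tagmented and read as paired ends of 75 bases, per the labels' protocols. Gene-level counting by the authors used featureCounts and the mouse build mm10, per the submitters' processing notes, and the deposited values are raw counts for 27179 Entrez identifiers. For versions, aligner and annotation, the entry is "not given in the sources used here". The kit marks neither strand nor molecules, so limits and intervals cover counting error only. A table of the whole series holds 8 per-sample columns whose names match no label, and it was not used. Symbols were matched for 25275 identifiers (93%), and gene positions, promoters and their build (GRCm38.p6) came from RefSeq. Overlaps and shared stretches of transcripts came from GENCODE.

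Libraries were grouped by population and genotype from the labels, and total counts ran from 11516780 to 19171953. The filter kept the 18163 genes that reached 1 CPM in 2 or more libraries. Testing used edgeR 4.0.16 in R 4.3.3 (quasi-likelihood F test), with TMM scaling, robust dispersion and 1 mean per group over all 8 libraries; tests were two-sided, with Benjamini-Hochberg adjustment over all genes and calls at an adjusted p under 0.05. The spread comes from the WT libraries, since each KO group holds 1. The SE is the absolute log2 fold change divided by the square root of F. The limit of a count of 0 is 3 counts, and intervals of ratios are exact Poisson intervals at 95%. Alternatives were RLE factors, library totals, other filters, DESeq2 1.42.0, limma-voom (limma 3.58.1), each replicate left out, a replicate block, and WT cTEC 1 as the only cortical WT library. Leaving each WT cTEC library out of the bounds was added after the values were seen.

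Members and lists were chosen with earlier results of these data known. Per-library values are given for members called in any comparison and for the 10 with the highest CPM per kb, and of the list genes only called ones among the 3 largest changes per direction are named. Aire, Fezf2, Trpm5, Col1a1 and other markers are named as values that move with a result. The planned protein sequences were not used here.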

Additional observations from a re-analysis of the deposited data

Results flagged for a closer look

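In WT cTECs 9 of the 38 members that could be tested had 1 library far from the other 3 by Dixon's criterion, and in 7 of the 9 it was WT cTEC 1, above the rest. The criterion flags about 1 in 20 groups of normally distributed values by chance, and some flagged values here were at or near 0 counts. The share of all genes flagged was not computed, so the count cannot be read as particular to the members. WT cTEC 1 held Calcb, the calcitonin gene-related peptide gene, at 107.1 CPM (the other 3 libraries at 54.1 to 60), Penk at 72.4 CPM (32.5 to 37.9), Ghrl at 10.7 CPM (1.57 to 2.58), Sst at 5.14 CPM (0.0548 to 0.295), Gip at 3.21 CPM (0.443 to 0.878), Trh at 1.5 CPM (0 to 0.0548) and Nppb at 0.499 CPM (0 to 0.0543). Vip was at 1.57 CPM in WT cTEC 3 and at 0 counts in the other 3. Cga was at 0 counts in WT cTEC 4 and at 1.21 to 1.33 CPM in the others. Aire, Fezf2 and Insm1 stood at 116.2, 119.4 and 39.3 CPM in WT cTEC 1, and their part in these values was not tested.

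The KO effect differed between mTECs and cTECs for 7 members by the test of the difference itself in edgeR. On the log2 scale, mTEC minus cTEC, it was 6.47 for Calcb, 6.34 for Scg5 and 4.38 for Sct. It was 14.54 for Chga, 11.45 for Iapp, 10.78 for Tac1 and 10 for Calca, sizes that depend on the prior because these 4 genes had 0 counts in KO cTEC.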

How the results depend on the processing

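Members higher in WT mTECs than WT cTECs (25) numbered 8 to 30 when single libraries were left out, and with WT cTEC 1 as the only cortical WT library 3 were lower. Members lower in KO cTEC (13) numbered 24 by DESeq2, 2 by limma-voom, 33 with WT cTEC 1 alone and 11 to 18 without single libraries. In KO mTEC DESeq2 called 1 lower. The difference of the KO effects (7) was called for 15 members by DESeq2, 0 by limma-voom and 5 to 10 without single libraries, and 0 to 1 were called in the other direction. Members detected in WT cTEC 3 (19 at 1 CPM) numbered 35 at 1 count and 31 at 3 counts, and in KO cTEC (4) 14 and 11. Calls that held under every alternative numbered 8 of 25 for the WT groups, 3 of 14 (Penk, Calcb and Scg5) for KO cTEC and 0 of 7 for the difference. The shares of all genes called under the alternatives are not given here. Changes in these counts therefore cannot be read as particular to the members.

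For single members, calls were lost in 54 instances over the alternatives between the WT groups, 20 in KO cTEC and 12 for the difference, and gained in 4, 2 and 1, and 1 in KO mTEC. Signs turned between WT mTECs and WT cTECs for Penk (-0.03), Chga (-0.89, adjusted p = 0.0061) and Chgb (-0.96, adjusted p = 0.023) with WT cTEC 1 alone, for Chga also under the replicate block (-0.3), and for Pth by limma-voom (2.37) and without single libraries (-0.82 to 1.41, the latter without WT cTEC 1). In KO cTEC Grp ran from -0.04 to 0.1 without single libraries, turning without WT cTEC 1 (-0.03) or 2. The cause was not tested. With the replicate block, fitted on the WT libraries, 22 members were called higher, against 25 in the same libraries without it. Same-numbered libraries did not deviate together (correlations -0.146 and -0.019), so the numbers were not taken as pairs. Depth limits the members at 0 to 3 counts in KO cTEC to bounds or wide intervals.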
